A study of Homo sapiens with 12 samples.

Results

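The genes described here make cholesterol and fatty acids under the sterol regulatory element-binding proteins (SREBPs), encode or control the SREBPs themselves, or, for STARD4, carry cholesterol. A list of 30 such genes was matched by symbol to the array's probes, and every probe assigned to a single gene was kept. Of the 30 genes 27 had such a probe, and 26 of these carried values and were tested, among 18102 genes tested in all. The 26 genes had 41 tested probes, 12 genes having more than 1, and each gene was represented by its probe with the highest mean signal. ACAT2 shared its only probe with another gene, FDFT1 and FADS1 had no single-gene probe in the table used, and the HSD17B7 probe was coded as missing on every array. All 26 representative probes lay above the median signal of the array.

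Cholesterol is made from acetyl-CoA through mevalonate, farnesyl diphosphate, squalene and lanosterol. When membranes of the endoplasmic reticulum hold little cholesterol, the escort protein SCAP carries SREBPs to the Golgi, where they are cut and released to the nucleus, and INSIG proteins hold SCAP back when sterol is plentiful. INSIG1 is itself an SREBP target, and stromal cells of the endometrium use these lipids for membranes and, from fatty acids, for prostaglandins.

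T-HESC, the human cells used, descend from endometrial stroma and carry telomerase, which lets the line divide without limit. All cultures were held for 24 h without serum, in medium with puromycin, antibiotics and a supplement of linoleic acid, albumin, transferrin, selenious acid and insulin, and were then treated for 48 h. There were 4 groups: vehicle, TNFα (tumour necrosis factor alpha, 5 ng/ml), IL1β (interleukin 1 beta, 1 ng/ml), and the combination of the 2 cytokines. Each group had 3 single-colour CodeLink arrays, 1 culture per array, replicates 1, 2 and 3 being passages 13, 28 and 15. The replicates are passages of 1 line, so p-values measure the spread between passages of this line. The submitters set out to find genes whose expression responds to TNFα and IL1β in these cells.

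Values are log2 intensities after each array was scaled to a median near 1, so a value of 0 is the middle of an array. Each array gave a positive value for 52944 to 53507 probes. Of 11 stromal marker genes 8 were measured, from percentile 55.0 of all probes (COL6A1), 84.1 (NT5E) and 88.7 (PDGFRB) upwards, with COL1A1, COL1A2, COL3A1, THY1 and S100A4 above the 96th. The 6 leukocyte markers measured ran from percentile 0.851 (PTPRC) to 60.1 (CD3E) and 74.9 (CD68), and the 6 endothelial markers from 2.03 (KDR) to 87.7 (PECAM1). The 7 epithelial markers ran from 34.8 (EPCAM), 52.8 (KRT7) and 59.9 (KRT8) to 91.7 (ESRP1) and 97.0 (KRT19). On the first principal component, which held 22.6% of the variance, 3 arrays stood apart, with scores of 171 for vehicle replicate 3, 68.7 for replicate 3 of TNFα and 53.0 for replicate 2 of IL1β. At its other end lay vehicle replicate 1 (−84.8), with the 8 other arrays from −33.8 to −18.2. SOD2, a known target of both cytokines, stood at 1.70, 2.17 and 2.47 with vehicle, at 5.57 to 6.47 with TNFα and at 5.25 to 5.88 with IL1β, and rose with each (adjusted p = 0.0032 and 0.012, limma).

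TNFα was set against IL1β directly, a comparison that shares no control arrays. The mean was higher with TNFα than with IL1β for all 26 genes, and for 24 of 26 after quantile normalization, where INSIG2 (−0.05) and SCAP (−0.0055) turned. The median difference was 0.50 on the log2 scale, with single genes from 0.04 (MVD) to 1.01 (TM7SF2), or 1.03-fold to 2.02-fold. No gene passed the test: limma with Benjamini-Hochberg adjustment over all 53671 probes called 0 members (lowest adjusted p = 0.913). It also called 0% of all genes and 0 probes, while 2706 probes had an unadjusted p under 0.05. Among the members 3 of 26 had an unadjusted p under 0.05 (TM7SF2, ELOVL6 and INSIG1), against 4.53% of all genes.

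The whole array leaned the same way, and the members leaned further. Of all genes tested 69% had a higher mean with TNFα than with IL1β, as did 76.9% of the 12012 genes above the median signal, and the median over all genes was 0.13. The median of the members therefore lay 0.37 above that of all genes, and 24 of the 26 lay above it. On every array 9 of 26 members were higher with TNFα than on any IL1β array and 0 were lower, where 12.6% of all genes were higher and 2.25% lower, and 15.5% of genes above the median signal were higher. These 9 genes were PMVK, FDPS, SQLE, CYP51A1, TM7SF2, INSIG1, SREBF2, STARD4 and ELOVL6. Counting all 41 probes, 38 were higher with TNFα. The 3 others were dimmer probes of IDI1 (−0.01), SREBF2 (−0.34) and STARD4 (−0.97). Without overlap 11 of the 41 probes were higher and 1, of STARD4, was lower, against 5402 and 1850 of all 53671 probes. Members tended to move together on an array, and on IL1β replicate 3 all 26 lay below their 12-array mean. Counts of members, here and below, are thus not separate observations, and each group had 3 arrays. The array median of the members had a pooled SD of 0.26 within groups, beside the difference of 0.50.

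**Figure D1:**
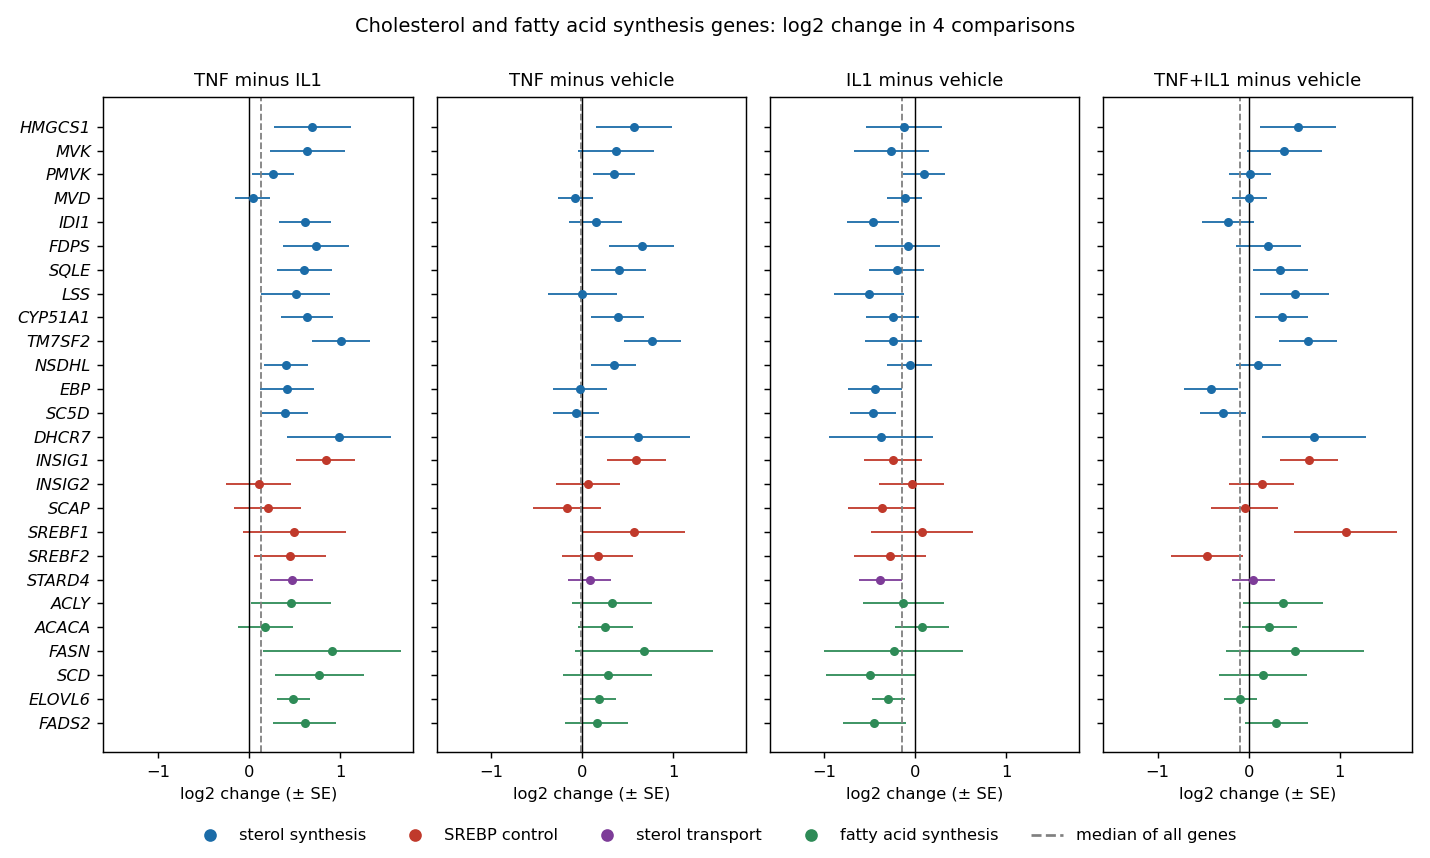
Log2 change of the 26 member genes (rows, coloured by role) in 4 comparisons, as points with bars of 1 limma standard error, with n = 3 arrays per group. The dashed grey line is the median of all 18102 genes. All 26 points lie above 0 for TNFα minus IL1β (24 of 26 after quantile normalization), and 3 of 26 lie above 0 for IL1β minus vehicle (8 of 26 after quantile normalization).

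**Figure D2:**
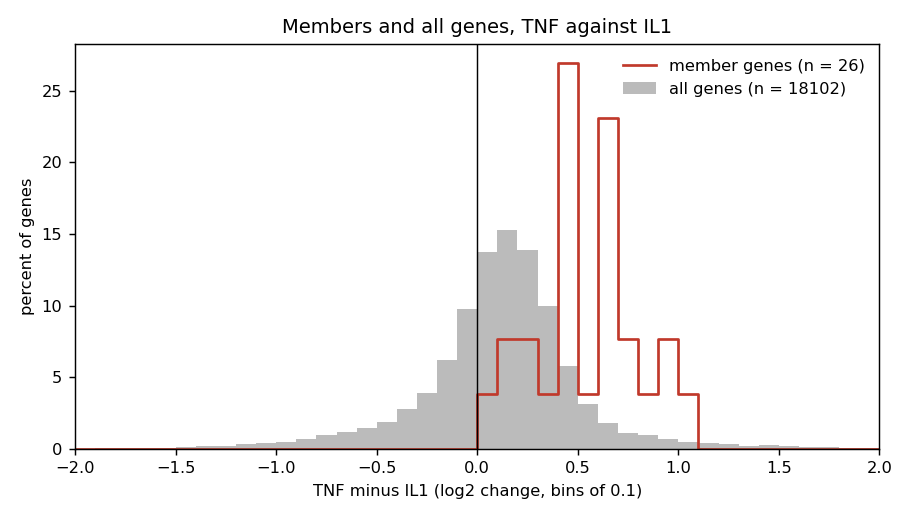
Distribution of the log2 change between TNFα and IL1β for all 18102 genes (grey bars) and for the 26 members (red line), in percent of each set, in bins of 0.1. The members span 0.04 to 1.01 around a median of 0.50, against a median of 0.13 for all genes.

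Sterol synthesis held 14 measured genes, and all 14 means were higher with TNFα than with IL1β (median 0.61). At the entry of the pathway HMGCS1, which makes HMG-CoA, differed by 0.70 ± 0.42 (SE, n = 3 per group), and the mevalonate kinase MVK by 0.64 ± 0.41. The next enzymes, PMVK (0.26 ± 0.23) and MVD (0.04 ± 0.19), showed smaller differences. IDI1, the isomerase that supplies the building block for farnesyl diphosphate, read 6.66, 6.80 and 7.24 with TNFα and 6.34, 6.76 and 5.75 with IL1β. IDI1 thus differed by 0.61 ± 0.29, and its groups overlapped because IL1β replicate 2 lay above TNFα replicate 1. The difference was 0.35 without IL1β replicate 3 and 0.39 after quantile normalization. With vehicle IDI1 read 6.40, 6.95 and 6.91, and with both cytokines 6.73, 6.52 and 6.32.

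FDPS, which makes farnesyl diphosphate, read 7.31, 7.34 and 7.71 with TNFα and 6.84, 7.14 and 6.17 with IL1β. These 2 groups did not overlap, and the difference was 0.74 ± 0.36, or 0.46 without IL1β replicate 3. With vehicle FDPS read 5.99, 7.35 and 7.06, so that vehicle replicate 1 was the lowest of all 12 arrays, and with both cytokines 7.19, 6.96 and 6.90. The squalene epoxidase SQLE differed by 0.61 ± 0.30 and the lanosterol synthase LSS, which closes the sterol ring, by 0.51 ± 0.38. CYP51A1, the lanosterol demethylase, read 5.26, 5.52 and 5.43 with TNFα and 4.89, 4.96 and 4.44 with IL1β. The groups did not overlap, and the difference was 0.64 ± 0.29. With vehicle CYP51A1 spread from 4.35 to 5.52, and with both cytokines it read 5.59, 5.30 and 5.23, close to TNFα alone.

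TM7SF2, a sterol reductase that acts after CYP51A1, had the largest difference among the members. It read 1.66, 2.40 and 1.16 with TNFα, 0.87, 0.67 and 0.63 with IL1β, 1.03, 1.27 and 0.61 with vehicle, and 1.96, 1.56 and 1.34 with both cytokines. Every array with TNFα, alone or combined, was higher than every IL1β array. The difference between TNFα and IL1β was 1.01 ± 0.32 (95% interval 0.31 to 1.72, adjusted p = 0.913, limma). Later steps gave 0.41 ± 0.25 for the dehydrogenase NSDHL and 0.42 ± 0.29 for the sterol isomerase EBP. DHCR7, the reductase that forms cholesterol from its direct precursor, differed by 0.99 ± 0.57, with SDs of 0.75 with TNFα and 0.84 with IL1β. The desaturase SC5D read 0.67, 0.26 and 1.11 with TNFα and 0.34, 0.49 and 0.02 with IL1β, groups that overlapped (0.40 ± 0.25). With vehicle SC5D read 0.49, 0.80 and 0.95, above the IL1β mean on each array.

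Among the 5 genes that control SREBP, INSIG1 had the largest difference. It read 6.11, 6.42 and 6.24 with TNFα, 5.59, 5.78 and 4.88 with IL1β, 5.28, 6.37 and 5.34 with vehicle, and 6.38, 6.37 and 6.22 with both cytokines. The 6 arrays with TNFα thus lay between 6.11 and 6.42, all above the 3 IL1β arrays, while vehicle replicate 2 reached the level of TNFα. TNFα exceeded IL1β by 0.84 ± 0.32 (95% interval 0.13 to 1.56, 1.79-fold, adjusted p = 0.913, limma), and a dimmer INSIG1 probe gave 0.62 ± 0.60. The related INSIG2 differed by 0.11 ± 0.36 and SCAP by 0.20 ± 0.37, neither beyond its error. SREBF1, which encodes the SREBP forms that favour fatty acid genes, read 5.39, 5.54 and 3.94 with TNFα and 5.16, 4.14 and 4.09 with IL1β. The groups overlapped widely (0.50 ± 0.56). SREBF2, which encodes the form that favours cholesterol genes, differed by 0.45 ± 0.39, and its other 2 probes gave 0.39 and −0.34.

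STARD4, a carrier of cholesterol between membranes, differed by 0.47 ± 0.24, with no overlap between the groups. A dimmer STARD4 probe went the other way, at −0.97 ± 1.04, also with no overlap. The 6 fatty acid genes were all higher with TNFα (median 0.55). ELOVL6, which lengthens the fatty acids made by the synthase, read 4.95, 4.84 and 5.01 with TNFα and 4.74, 4.30 and 4.30 with IL1β. These groups did not overlap, and the difference of 0.49 ± 0.18 (95% interval 0.09 to 0.89, adjusted p = 0.913, limma) had the smallest error of all members. After quantile normalization it was 0.27. With vehicle ELOVL6 read 4.78, 4.87 and 4.59 and with both cytokines 4.72, 4.56 and 4.67. The desaturase SCD gave 0.77 ± 0.49, the fatty acid synthase FASN 0.92 ± 0.76, FADS2, which desaturates polyunsaturated fatty acids, 0.61 ± 0.35, and ACLY, which supplies acetyl-CoA from citrate, 0.46 ± 0.44. The carboxylase ACACA, which makes malonyl-CoA, differed least, by 0.18 ± 0.30.

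**Figure D3:**
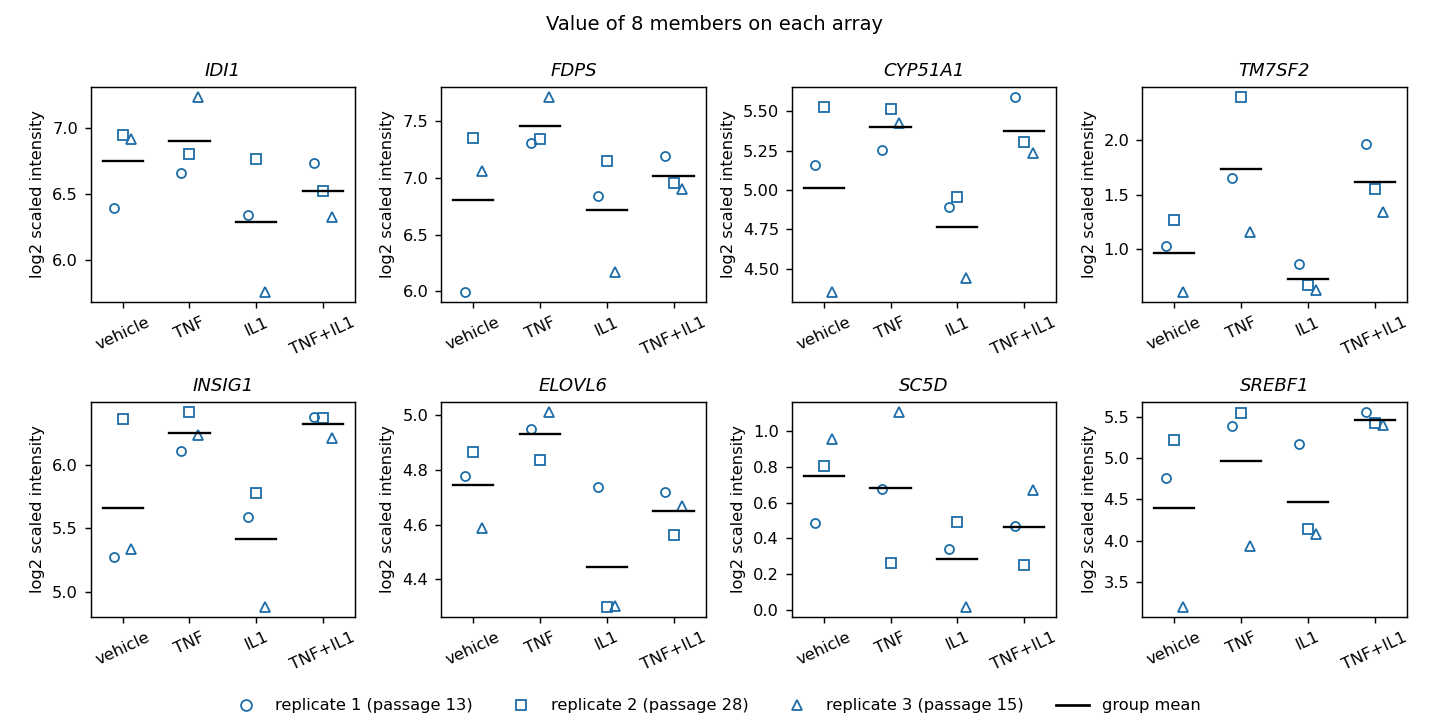
Log2 scaled intensity of 8 members on each of the 12 arrays, by group, with symbols for the passage and a line at the group mean. TM7SF2 and INSIG1 are higher on all 6 arrays with TNFα (alone or combined) than on the 3 IL1β arrays, and SREBF1 spreads from 3.20 to 5.22 among the vehicle arrays.

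Within each passage the direction held for most members, but the leading genes changed. Arrays of the same passage were hardly more alike in their residuals (values minus the group mean) than others. The pairing here thus rests on the labels. TNFα minus IL1β was positive for 25 of 26 members in passage 13 (median 0.34), 22 of 26 in passage 28 (median 0.57) and 23 of 26 in passage 15 (median 0.70). Over all genes the medians were 0.10, 0.25 and 0.07, with 62.9%, 67.8% and 54.5% of genes positive. In all 3 passages 18 members were positive, against 23% of all genes, and 0 were negative, against 5.82%. In passage 15 the enzymes of the early pathway led, with HMGCS1 at 2.10, FDPS at 1.54 and IDI1 at 1.48, followed by INSIG1 at 1.36. In passage 28 these were −0.66, 0.20 and 0.04, and TM7SF2 (1.73), FASN (1.43), SREBF1 (1.40) and DHCR7 (1.37) led. SREBF1 (−0.15) and SCAP (−0.66) were among the 3 negative members in passage 15, where the TNFα array was among the 3 that stood apart, while in passage 28 the IL1β array was. HMGCS1 and FASN, singled out after their values were seen, show the pattern by array. HMGCS1 read 3.14, 2.93 and 3.80 with TNFα, 2.50, 3.59 and 1.70 with IL1β, 2.91, 2.58 and 2.68 with vehicle, and 3.53, 3.03 and 3.24 with both cytokines. Its IL1β arrays thus held both the second highest and the lowest of the 12 values. FASN read 2.26, 2.25 and 1.19 with TNFα, 1.48, 0.81 and 0.66 with IL1β, 2.01, 2.62 and −0.96 with vehicle, and 1.85, 1.72 and 1.63 with both cytokines. Its vehicle replicate 3 was the lowest of all arrays, while replicate 2 of vehicle was the highest. The part of the arrays that stood apart in each gene's difference was not tested. Without the 3 arrays 25 of 26 members were still higher with TNFα, with a median of 0.64.

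**Figure D4:**
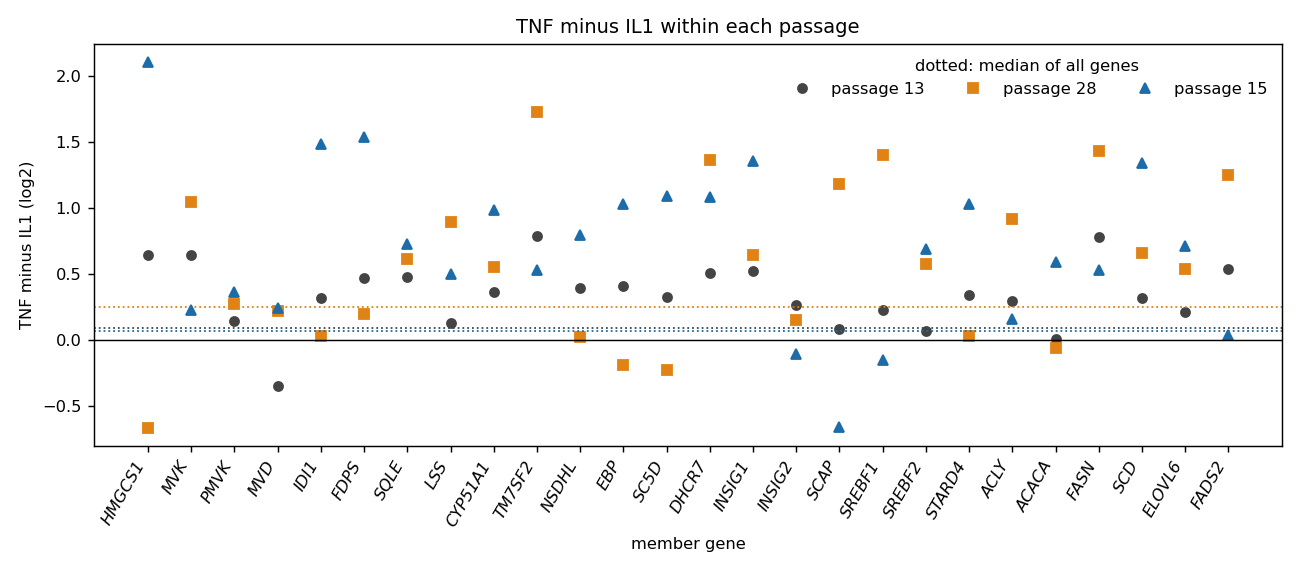
TNFα minus IL1β (log2) for each of the 26 members in passage 13, 28 and 15, with dotted lines at the median of all genes in that passage. Most points lie above 0, HMGCS1 runs from −0.66 in passage 28 to 2.10 in passage 15, and 18 members are above 0 in all 3.

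Markers of other cell types were read in the same comparison, where 69% of all genes were higher with TNFα. The sums weigh the brightest gene most, KRT19 of the epithelial and PECAM1 of the endothelial list. The summed intensity of 7 epithelial genes ran from 77.8 to 128 with TNFα and from 40.1 to 78.6 with IL1β, overlapping slightly, against 104 to 148 with vehicle and 53.1 to 56.6 with both cytokines, and 6 of 7 were higher with TNFα than with IL1β. The 6 endothelial markers summed to 17.7 to 20.6 with TNFα and 14.7 to 17.2 with IL1β, without overlap, and 5 of 6 were higher with TNFα. Their sums were 16.7 to 21.9 with vehicle and 16.4 to 17.8 with both cytokines. None of these genes was called between TNFα and IL1β. The 8 stromal markers summed to 623 to 1412 with TNFα and 694 to 1346 with IL1β, and 3 of 8 were higher with TNFα. The 6 leukocyte markers summed to 5.86 to 7.38 with TNFα and 5.17 to 7.73 with IL1β. The part of these genes in the members' difference was not tested. In cultures, fewer cells that make a transcript and less of it per cell cannot be told apart.

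Promoter sequence was read for 24 of the 26 genes from a RefSeq table (GRCh38.p14), because the list is one of SREBP-controlled genes. It was read as 34 windows from 250 bases before to 50 after a start site. Since the genes were listed as SREBP-controlled beforehand, the shares below describe the list and not the arrays. The core of the sterol regulatory element, searched as CACNCCAC on both strands, was in 7 of 34 windows (20.6%), of ACACA, IDI1, INSIG1, SC5D, SCD and SREBF2, against 5.87% of all 35116 windows. Its extension by a T, TCACNCCAC, which contains the core, was in the SREBF2 window alone and in 1.13% of all. CCAAT boxes, where the SREBP partner NF-Y binds, were in 22 of 34 windows (64.7%) against 34.6% (letters CCAAT, both strands), and GC boxes (GGGCGG, both strands) in 30 of 34 (88.2%) against 45.0%. The E-box CACGTG, a palindrome, was in 5 of 34 (14.7%) against 7.26%. Overlapping windows of SC5D hold the same core and E-box sites, which are counted in each. By gene the core was in 6 of 24 and the E-box in 4 of 24. A match describes the letters only. The 250 bases before the start site are shown for INSIG1 (chr7:155297628-155297877, plus strand), for SREBF2 (chr22:41832855-41833104, plus strand), for the IDI1 start site with a core element (chr10:1048887-1049136, minus strand) and for TM7SF2 (chr11:65111622-65111871, plus strand). INSIG1, SREBF2 and IDI1 hold the core and a CCAAT box, and TM7SF2, with the largest difference, holds a CCAAT box alone of the letters marked. Capitals mark the sterol element, E-box and CCAAT letters on either strand.
INSIG1: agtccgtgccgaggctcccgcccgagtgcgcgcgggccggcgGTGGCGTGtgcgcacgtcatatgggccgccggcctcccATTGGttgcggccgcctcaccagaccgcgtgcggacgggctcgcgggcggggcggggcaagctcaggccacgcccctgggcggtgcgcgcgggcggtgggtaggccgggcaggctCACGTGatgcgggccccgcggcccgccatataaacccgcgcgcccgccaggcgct
SREBF2: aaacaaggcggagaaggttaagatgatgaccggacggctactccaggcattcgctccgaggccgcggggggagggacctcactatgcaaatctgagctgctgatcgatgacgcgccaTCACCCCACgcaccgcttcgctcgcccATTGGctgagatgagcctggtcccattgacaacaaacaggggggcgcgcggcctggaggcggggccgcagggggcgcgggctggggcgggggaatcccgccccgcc
IDI1: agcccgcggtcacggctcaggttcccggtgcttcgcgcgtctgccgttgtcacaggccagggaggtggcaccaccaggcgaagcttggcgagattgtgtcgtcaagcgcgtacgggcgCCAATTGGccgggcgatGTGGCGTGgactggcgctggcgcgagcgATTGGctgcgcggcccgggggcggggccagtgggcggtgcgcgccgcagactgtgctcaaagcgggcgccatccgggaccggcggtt
TM7SF2: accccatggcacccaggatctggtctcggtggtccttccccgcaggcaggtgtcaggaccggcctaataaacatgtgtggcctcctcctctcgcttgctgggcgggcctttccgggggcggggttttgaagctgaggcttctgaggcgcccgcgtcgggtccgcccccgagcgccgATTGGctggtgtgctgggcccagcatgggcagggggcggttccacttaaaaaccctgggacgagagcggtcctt
Positions count from the start site. In INSIG1 the core lay on the opposite strand at −208, the CCAAT box at −170 and the E-box at −55. In SREBF2 the extended element lay at −133 and the CCAAT box at −106. In IDI1 the core lay on the opposite strand at −115, between CCAAT boxes at −129 and −87. Among the members with the smallest p-values INSIG1 (0.84) and IDI1 (0.61) held the core, and TM7SF2 (1.01), FDPS (0.74), CYP51A1 (0.64) and ELOVL6 (0.49) did not.

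Against vehicle, the members' medians with TNFα and with IL1β lay on opposite sides of 0. The 3 comparisons share the same vehicle arrays, however, and these spread widely. With IL1β the median of all genes was itself −0.15, and 9 of 26 members lay above it. Relative to all genes the members' median lay at 0.32 with TNFα and at −0.10 with IL1β. With TNFα 21 of 26 members had a higher mean than with vehicle (median 0.30), where 47.4% of all genes did (median −0.02), and no member passed (lowest adjusted p = 0.663, limma). Over the array 25 probes (0.0466%), or 0.0773% of genes, were called, and 1 of 26 members had an unadjusted p under 0.05 against 6.61% of genes. TM7SF2 (0.77 ± 0.32), INSIG1 (0.60 ± 0.32) and FDPS (0.65 ± 0.36) had the smallest p-values. FDPS stood at 0.25 without vehicle replicate 1, TM7SF2 at 0.44 without TNFα replicate 2, and INSIG1 at 0.95 without vehicle replicate 2. Only HMGCS1 and PMVK were higher on each TNFα array than on any vehicle array, 2 of 26 members against 4.09% of all genes, and 0 were lower, against 4.47%. Within passage 13, 28 and 15 the median was 0.36, −0.0058 and 0.49. The median depended on the vehicle arrays, being 0.06 without vehicle replicate 3 and 0.50 without vehicle replicate 2.

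With IL1β 23 of 26 members had a lower mean than with vehicle (median −0.25) and 3 a higher, where 32.7% of all genes were higher. After quantile normalization 8 were higher; this scaling moved the median of all genes from −0.15 to −0.02. Relative to all genes the members lay at −0.10 and −0.09 under the 2 scalings. No member passed (lowest adjusted p = 0.586, limma, with 3 probes, 0.00559%, or 0.011% of genes, called). Of 26 members 0 had an unadjusted p under 0.05, against 8.13% of genes, and 0 of 26 had groups that did not overlap, against 7.99% of all genes lower and 2.58% higher. SC5D (−0.46 ± 0.25), ELOVL6 (−0.30 ± 0.18) and IDI1 (−0.47 ± 0.29) had the smallest p-values. Dimmer probes of the same genes went the other way for ELOVL6 (0.44 ± 0.71) and IDI1 (0.48 ± 0.30). The dimmer SC5D probe gave −0.51 ± 0.23, with no overlap between the groups. After quantile normalization SC5D kept −0.46, while ELOVL6 stood at −0.06 and IDI1 at −0.19. IDI1 ran from −0.20 without IL1β replicate 3 to −0.71 without IL1β replicate 2. IL1β replicate 3 was the lowest array for the members, with all 26 below their 12-array mean and a median deviation of −0.63. Within passage 13, 28 and 15 the median was −0.04, −0.57 and −0.25. Over all passages it was −0.09 without that array, −0.07 without vehicle replicate 2 and −0.41 without vehicle replicate 3.

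With both cytokines together most members again lay above vehicle. Of 26 members 20 had a higher mean than with vehicle (median 0.22, against −0.10 and 40.5% for all genes). After quantile normalization the median was 0.44, against 0.02 for all genes, and 22 of 26 were higher. No member passed (lowest adjusted p = 0.422, limma, with 133 probes, 0.248%, or 0.348% of genes, called), and 0 had an unadjusted p under 0.05, against 12.7% of genes. TM7SF2 (0.65 ± 0.32), INSIG1 (0.66 ± 0.32) and SREBF1 (1.07 ± 0.56) had the smallest p-values. SREBF1 stood at 0.47 without vehicle replicate 3, and INSIG1 ran from 0.47 without vehicle replicate 1 to 1.01 without vehicle replicate 2. SREBF1 read 5.56, 5.42 and 5.40 with both cytokines against 4.75, 5.22 and 3.20 with vehicle, groups that did not overlap. HMGCS1, TM7SF2 and SREBF1 were the 3 of 26 members higher on every such array, against 6.81% of all genes, and 0 were lower on every one, against 12.2%. SREBF2, singled out after its values were seen, lay on the other side, at 2.63, 3.02 and 3.06 with both cytokines against 2.33, 3.62 and 4.14 with vehicle (−0.46 ± 0.39). Within passage 13, 28 and 15 the median was 0.42, −0.27 and 0.58, and over all passages 0.02 without vehicle replicate 3 and 0.48 without vehicle replicate 2. The vehicle array of passage 28 had the highest member median of its group (0.35), with 3 of 26 members below their 12-array mean.

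**Figure D5:**
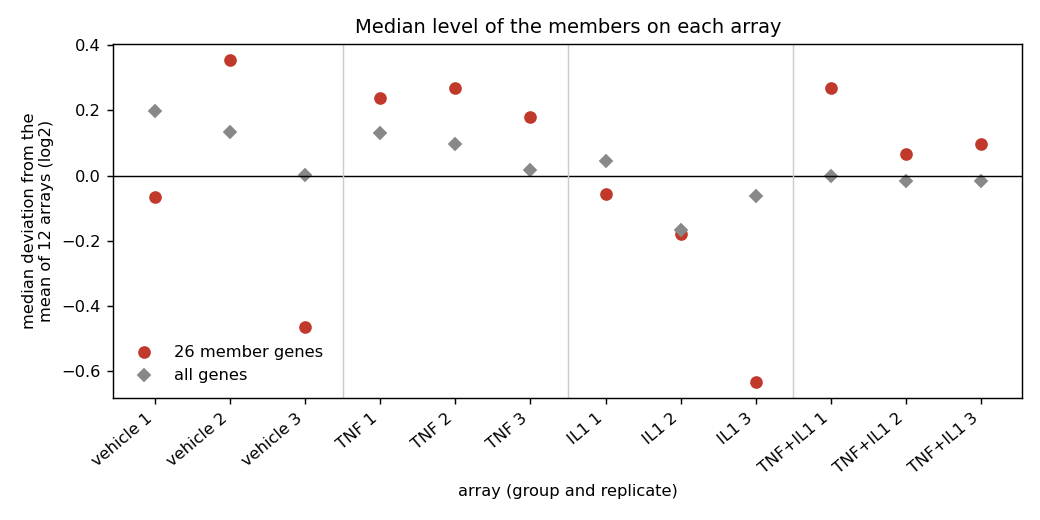
Median deviation of the 26 members (red) and of all genes (grey diamonds) from each gene's mean over the 12 arrays, per array, in log2. Members lie above 0 on all 6 arrays with TNFα and below 0 on all 3 IL1β arrays, while the vehicle arrays spread from −0.46 to 0.35.

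The order of the group means followed from this. IL1β gave the lowest mean for 22 of 26 members, against 33.9% of all genes, and the highest for 0. This count depends on the scaling, since 5 of the 22 lay above vehicle with IL1β after quantile normalization. TNFα gave the highest mean for 14, against 28.5% of all genes, and both cytokines together for 9. The exceptions at the low end were PMVK, SREBF1 and ACACA, lowest with vehicle, and SREBF2, lowest with both cytokines. Within passages, adding TNFα to IL1β moved the members by a median of 0.36 (22 of 26 higher), 0.29 (18 of 26) and 0.69 (25 of 26) in passage 13, 28 and 15, while all genes moved by −0.05, 0.14 and 0.05. Adding IL1β to TNFα gave medians of 0.01, −0.20 and −0.03, while all genes moved by −0.14, −0.11 and −0.02. The interaction, the departure from adding up on the log2 scale, called 0 members and 0% of genes (lowest member adjusted p = 1.00, limma, with 522 genes, 2.88%, at an unadjusted p under 0.05). It was positive for 21 of 26 members, against 56.9% of all genes, with a median of 0.17 that became −0.015 without vehicle replicate 2.

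Other genes of lipid metabolism were read from lists that did not include the members. Beside them, 69% of all genes were higher with TNFα than with IL1β, with a median of 0.13. Of 12 further genes of sterol and isoprenoid synthesis 8 were measured, and 8 were higher with TNFα than with IL1β, none past the test (median 0.21). MSMO1, a sterol oxidase of the same pathway, led at 0.65 ± 0.31 without reaching the threshold. DHDDS and PDSS1, which build other isoprenoids, gave 0.28 and 0.21. With both cytokines all 8 of these genes had a lower mean than with vehicle (median −0.25), where 20 of 26 members had a higher one. Of 7 measured genes on a further list around SREBP processing 5 were higher, near the share of all genes. Their median of 0.10 was below that of all genes. TMEM97, a sterol-responsive membrane protein on that list, had its largest difference, at 0.85 ± 0.24, and SYVN1 its lowest, at −0.20. TMEM97 read 4.72, 4.78 and 4.98 with TNFα and 4.03, 4.24 and 3.65 with IL1β, without overlap, and did not pass (adjusted p = 0.913, limma). Against vehicle (4.61, 5.12 and 4.62) it differed by −0.81 ± 0.24 with IL1β and by 0.04 ± 0.24 with TNFα. ERLIN1 and ERLIN2 gave 0.28 and 0.14. Of 13 genes of cholesterol uptake, trafficking and storage 11 were higher (median 0.21), and the cholesteryl ester hydrolases NCEH1 (0.75 ± 0.25) and LIPA (0.81 ± 0.28) and the mitochondrial carrier STAR (0.57 ± 0.43) had the smallest p-values. Of 15 other fatty acid genes 14 were higher (median 0.26), and the citrate carrier SLC25A1 (0.58 ± 0.28), the acetyl-CoA synthetase ACSS2 (0.58 ± 0.32) and the elongase ELOVL5 (0.40 ± 0.23) had the smallest p-values. In each of these lists 0 genes were called in any of the 5 comparisons.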

How the data were processed

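Per the labels' protocols, biotinylated cRNA made from total RNA of each culture was hybridised to its own single-colour CodeLink array. The deposited values are linear intensities. How the authors analysed the images, corrected background and scaled is not stated in the labels or headers read; scaling of each array to its median was read from the values, whose median lay near 1 on all 12 arrays. The code −9999 (0.716% of values) and values at or below 0 (1.10%) were set to missing before log2.

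Probes with values on at least 2 arrays of every group (53671 of 54359) were fitted with limma 3.58.1 in R 4.3.3 as 4 group means with 8 residual degrees of freedom, two-sided, with Benjamini-Hochberg adjustment over all probes and calls at adjusted p under 0.05. Of the probes 23472 had 1 gene, 905 several and 29982 none, by the platform table, with 23434 symbols taken from RefSeq by Entrez identifier. Errors of changes are limma standard errors, and SDs are over 3 arrays. The number of arrays limits the precision. The fit was tested on simulated data with noise independent between probes and added shifts larger than nearly all member differences. That test does not cover shifts of the members' size or shifts shared by an array. With 3 arrays a group, 0.1 is the smallest p that a two-sided exact permutation test allows.

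The members, lists and alternatives were chosen with earlier results of these data known. Given array by array were the 6 members with the smallest p between TNFα and IL1β and the 3 with the smallest against vehicle in each comparison; from other lists up to 3 genes by the same p. Genes outside this rule are marked as singled out after their values were seen. Replicate numbers mark shared passages, per the labels. Residuals of same-numbered arrays had a mean correlation of 0.0071 (−0.20 to 0.31, 18 pairs). Differently numbered arrays gave −0.0029 (−0.28 to 0.29, 36 pairs), so same-numbered arrays were hardly more alike.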

Additional observations from a re-analysis of the deposited data

How the results depend on the processing

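No member was called in any of the 5 comparisons under any alternative. The median difference between TNFα and IL1β stayed between 0.34 and 0.71 over 25 alternatives, with 24 to 26 of 26 genes higher (38 of 41 when every probe was counted). Leaving out 1 array gave 0.34 (without IL1β replicate 3) to 0.66 (without IL1β replicate 1). The lowest adjusted p of a member there was 0.133 (INSIG1). Against vehicle the medians ran from 0.06 to 0.51 for TNFα, from −0.46 to −0.07 for IL1β and from 0.02 to 0.48 for both cytokines. Without the 3 arrays apart these were 0.10, −0.46 and 0.02. The interaction median ran from −0.015 (without vehicle replicate 2, the only change of sign) to 0.39. Quantile normalization moved the median of all genes by 0.13 for IL1β and 0.12 for both cytokines against vehicle, and the members then gave −0.11 and 0.44. A replicate block for the passage cannot change the members' medians, because each group has 1 array of each passage. They were thus again 0.50, 0.30, −0.25 and 0.22 for TNFα against IL1β, TNFα, IL1β and both cytokines against vehicle, and 0.17 for the interaction. No call of a member changed with the block. Over all probes the block lowered the number of calls from 25 to 13 for TNFα and from 133 to 88 for both cytokines against vehicle. With array quality weights, whose fit stopped before its tolerance, 8 probes were called between TNFα and IL1β, none of a member. Dim signals could not be graded, because the files used here carry no detection calls.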

Other observations

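Of 16 measured genes of fatty acid oxidation 10 were higher with TNFα than with IL1β (median 0.11, against 0.13 for all genes), and against vehicle 14 of 16 were lower with IL1β (median −0.28, against −0.15 for all genes). None passed the test in any of the 5 comparisons. ACADL, a long-chain acyl-CoA dehydrogenase measured on a dim probe, read −0.95, −2.19 and −1.46 with vehicle and −6.55, −3.51 and −4.11 with TNFα, a difference of −3.19 ± 0.71 (adjusted p = 0.271, limma). It also lay below every vehicle array with IL1β (−3.37, −3.66 and −2.29) and with both cytokines (−2.86, −3.61 and −3.18). Genes of the oxysterol receptor LXR and of cholesterol efflux were split between the cytokines, with 6 of 12 higher with TNFα than with IL1β (median 0.0044). PLTP, a phospholipid transfer protein of that list singled out after its values were seen, lay below all vehicle arrays on every array of each cytokine group, with differences of −0.52 with TNFα, −0.66 with IL1β and −0.52 with both, and did not pass (adjusted p = 0.701, 0.440 and 0.375, limma).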
